A study of Mus musculus with 16 samples.

Results

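The 10 genes followed here are ones that muscle switches on when more fatty acid reaches it, measured in the gastrocnemius of 16 mice. They were listed by symbol for their known role, but with earlier results of these data known. The paper had already listed Acot1, Pdk4 and Cd36 as raised in CAC. Shares of the 10 set beside those of all genes below are therefore not independent of these data. All 10 of 10 were found among the 21923 genes of the count table and had enough counts to be tested in every comparison. By role they are Cd36 and Fabp3 (fatty acid uptake and carriage), Angptl4 (a secreted inhibitor of lipoprotein lipase), Plin2 and Plin5 (lipid droplet coats), Acot1 and Acot2 (acyl-CoA thioesterases), Ucp2 and Ucp3 (uncoupling proteins) and Pdk4 (a brake on glucose oxidation).

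Fatty acids that enter a muscle fibre serve both as fuel and as ligands of the PPAR nuclear receptors, which raise the transcription of genes for uptake, storage and oxidation of fat. In fasting muscle, glucocorticoids and FoxO factors act on several of the same genes, Pdk4 among them, while insulin lowers them. Cachexia, the wasting that accompanies some cancers, combines low food intake, release of fatty acids from adipose tissue and inflammation, and each of these bears on the genes listed.

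The study compared cachectic gastrocnemius, a muscle of the calf, with normal muscle and asked what happens when the release of exosomes (small vesicles) from the tumor is lowered by a drug or by knock-down of Rab27 in the tumor cells. Poly(A) RNA of 4 mice per group was sequenced, 1 library per mouse. NOR mice were C57BL/6 (replicates 1 and 2) or BALB/c (replicates 3 and 4) mice that received PBS and no tumor. CAC mice were of the same strains and carried subcutaneous LLC (Lewis lung carcinoma, in replicates 1 and 2) or CT26 (colon carcinoma, in replicates 3 and 4) tumors. AM mice carried those tumors and were given amiloride, a diuretic used to block exosome release, at 2 mg/kg in PBS, daily into the peritoneum from day 9. KD mice carried tumors grown from LLC or CT26 cells with Rab27 knocked down, so the mice themselves were not altered. NOR, CAC and KD mice were given PBS alone by the same route and from the same day. The mice were 6 to 8 weeks old, and muscles were taken on day 30. The labelled strain and the tumor line change together in tumor-bearing mice and cannot be told apart. The labels and the paper's supplement name both sexes for BALB/c and males for C57BL/6, the main methods name males only, and KD replicate 3, labelled BALB/c, had 0 counts on the Y-linked genes Uty and Kdm5d.

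Libraries held 35913190 to 61032708 counts on genes, so counting error was small for all 10 genes. Skeletal muscle markers were high in every library, with 0 of 8 at 0 and a summed level of at least 37870 CPM (TMM-normalized counts scaled to library size). Several libraries stood apart. CAC replicate 4, AM replicates 1 and 3 and KD replicate 1 shared 6 genes that were at least 8-fold higher than in all 12 other libraries, and had Trim12a at 0 to 0.765 CPM against 5.36 to 21.8 CPM elsewhere. These 4 libraries hold 2 of each labelled strain, and the labelled strains themselves were separated by 0 such genes, so the strain labels are given here as labels. AM replicate 1 also carried liver transcripts (summed liver markers 1703 CPM). B cell markers were nearly absent in some mice of NOR, CAC and KD (lowest sums 3.12, 0.975 and 0.415 CPM) and reached 223, 319 and 279 CPM in others. Values without the 4 libraries are given below wherever they change a result.

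Where the genes lie bears on how their counts are read. Positions are from the GENCODE M21 annotation of GRCm38. Acot2 (chromosome 12, 83987861 to 83993873, plus strand) and Acot1 (chromosome 12, 84009490 to 84018371, plus strand) are neighbours 15616 bp apart and copies of one another. Of the 31-base words in the exons of Acot2, 29.9% were also found in Acot1, so some of their reads could have been assigned to either gene. Ucp3 (chromosome 7, 100472990 to 100486432) and Ucp2 (chromosome 7, 100493337 to 100502020) are neighbours 6904 bp apart on the plus strand. Of the words of Fabp3, 50.1% were shared with other genes, mainly its pseudogene Fabp3-ps1 (35.2%), so its level is uncertain. Fabp3, Ucp3 and Ucp2 also overlap genes of the opposite strand (among them Zcchc17, Gm10603 and Dnajb13), and whether the counting used strand is not given in the sources used here.

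Start-site windows of 300 bases (250 before the start and 50 from it) were matched for 9 of the 10 genes in RefSeq sequences of GRCm38.p6, all but Angptl4. The windows of the 4 genes whose CAC mice all lay above the NOR mice are printed 5′ to 3′ on the strand of the gene, since these are the sequences nearest to the differences described below. Capitals mark AGGTCA, the half-site bound by PPAR and other nuclear receptors, or its reverse complement TGACCT.
Acot1, chr12:84009252-84009551, plus strand: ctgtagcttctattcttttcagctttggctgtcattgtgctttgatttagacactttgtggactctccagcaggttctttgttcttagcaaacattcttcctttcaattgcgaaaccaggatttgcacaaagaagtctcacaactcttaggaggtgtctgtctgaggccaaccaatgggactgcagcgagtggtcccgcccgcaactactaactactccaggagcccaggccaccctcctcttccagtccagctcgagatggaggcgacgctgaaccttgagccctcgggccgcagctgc
Acot2, chr12:83987611-83987910, plus strand: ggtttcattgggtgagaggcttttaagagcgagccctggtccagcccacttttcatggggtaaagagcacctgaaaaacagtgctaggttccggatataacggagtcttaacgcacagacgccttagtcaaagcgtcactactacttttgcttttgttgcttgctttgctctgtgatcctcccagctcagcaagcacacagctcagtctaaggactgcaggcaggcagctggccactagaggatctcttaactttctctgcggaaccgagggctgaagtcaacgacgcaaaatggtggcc
Cd36, chr5:17835847-17836146, minus strand, an inner start site within the gene: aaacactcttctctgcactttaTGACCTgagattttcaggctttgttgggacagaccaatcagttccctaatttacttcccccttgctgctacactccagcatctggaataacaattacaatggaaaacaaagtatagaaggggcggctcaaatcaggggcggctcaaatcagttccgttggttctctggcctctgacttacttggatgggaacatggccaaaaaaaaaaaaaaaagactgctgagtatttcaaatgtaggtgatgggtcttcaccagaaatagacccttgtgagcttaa
Plin5, chr17:56117499-56117798, minus strand: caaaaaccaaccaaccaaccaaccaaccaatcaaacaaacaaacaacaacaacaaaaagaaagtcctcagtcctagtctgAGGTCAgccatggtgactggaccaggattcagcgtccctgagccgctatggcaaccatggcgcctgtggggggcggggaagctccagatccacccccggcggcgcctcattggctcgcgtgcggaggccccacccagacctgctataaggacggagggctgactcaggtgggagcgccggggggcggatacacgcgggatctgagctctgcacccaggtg
The half-site was searched on both strands and was present in the windows of Cd36 (first base at -228), Plin2 (-218), Plin5 (-170) and Ucp3 (-149 and -44), counted from the start, and also in a second Plin5 window at 13. That made 5 of 10 windows of the 9 genes, and 5340 of all 32851 windows (16.3%) held it. The windows of Acot1 and Acot2, printed above, held none. A direct repeat of this half-site with a single base between the copies, the classical PPAR element, was present in 0.0396% of all windows and in 0 of the 10. The FoxO site GTAAACA (3.65% of all windows) was in 0 of the 10 too. The glucocorticoid receptor half-site AGAACA, found in 19.0% of all windows, was in the Acot1 window only. These are matches of letters in short windows and show neither binding nor its absence.

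Levels between genes were compared per length, as the FPKM the authors deposited. In the NOR gastrocnemius Fabp3 was highest, 408 ± 99.6 FPKM (mean ± SD, n = 4). Pdk4 (143 ± 85.0 FPKM) and Cd36 (138 ± 23.5 FPKM) came next with overlapping ranges. Ucp2 (49.3 ± 21.5 FPKM), Plin2 (48.5 ± 9.01 FPKM) and Ucp3 (47.6 ± 16.4 FPKM) overlapped as well. Plin5 (9.47 ± 1.27 FPKM), Acot2 (6.91 ± 1.12 FPKM) and Angptl4 (3.69 ± 1.48 FPKM) each overlapped the next, and Acot1 was lowest at 1.59 ± 0.219 FPKM. In the CAC gastrocnemius Pdk4 (500 ± 279 FPKM) and Fabp3 (388 ± 79.4 FPKM) overlapped at the top, and Acot1 (8.40 ± 2.94 FPKM) no longer lay below Angptl4 (5.31 ± 2.08 FPKM).

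In the CAC gastrocnemius 2 of the 10 genes rose relative to NOR and 0 fell. Acot1, a cytosolic thioesterase that frees fatty acids from coenzyme A, rose 4.81-fold and Plin5, which ties lipid droplets to mitochondria, rose 1.66-fold. A gene was called with edgeR's quasi-likelihood test at a Benjamini-Hochberg FDR of at most 0.05 over all genes and a fold change of at least 1.5, and 4.32% of the 14666 genes tested were called higher (9.45% in either direction). In 4 genes (Cd36, Plin5, Acot1 and Acot2) every CAC mouse lay above every NOR mouse, against 12.3% of all genes. The median log2 fold change of the 10 genes was 0.81 and that of all genes 0.01, with 8 of the 10 above 0 (51.2% of all genes). At an unadjusted p under 0.05 there were 6 of the 10, against 29.1% of all genes. DESeq2 called 5 of the 10 (Cd36, Plin5, Acot1, Acot2 and Pdk4), where it called 12.8% of all genes. In bulk muscle, fewer cells of a type and less RNA per cell cannot be told apart. Without the 4 libraries, of which CAC replicate 4 belongs to this comparison, Acot1 was called (log2 fold change 2.06, FDR 0.00457) and Plin5 was not (0.66, FDR 0.0877). The genes are given by role below, with the level in each mouse in CPM, in the order of replicates 1 to 4.

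**Figure D1:**
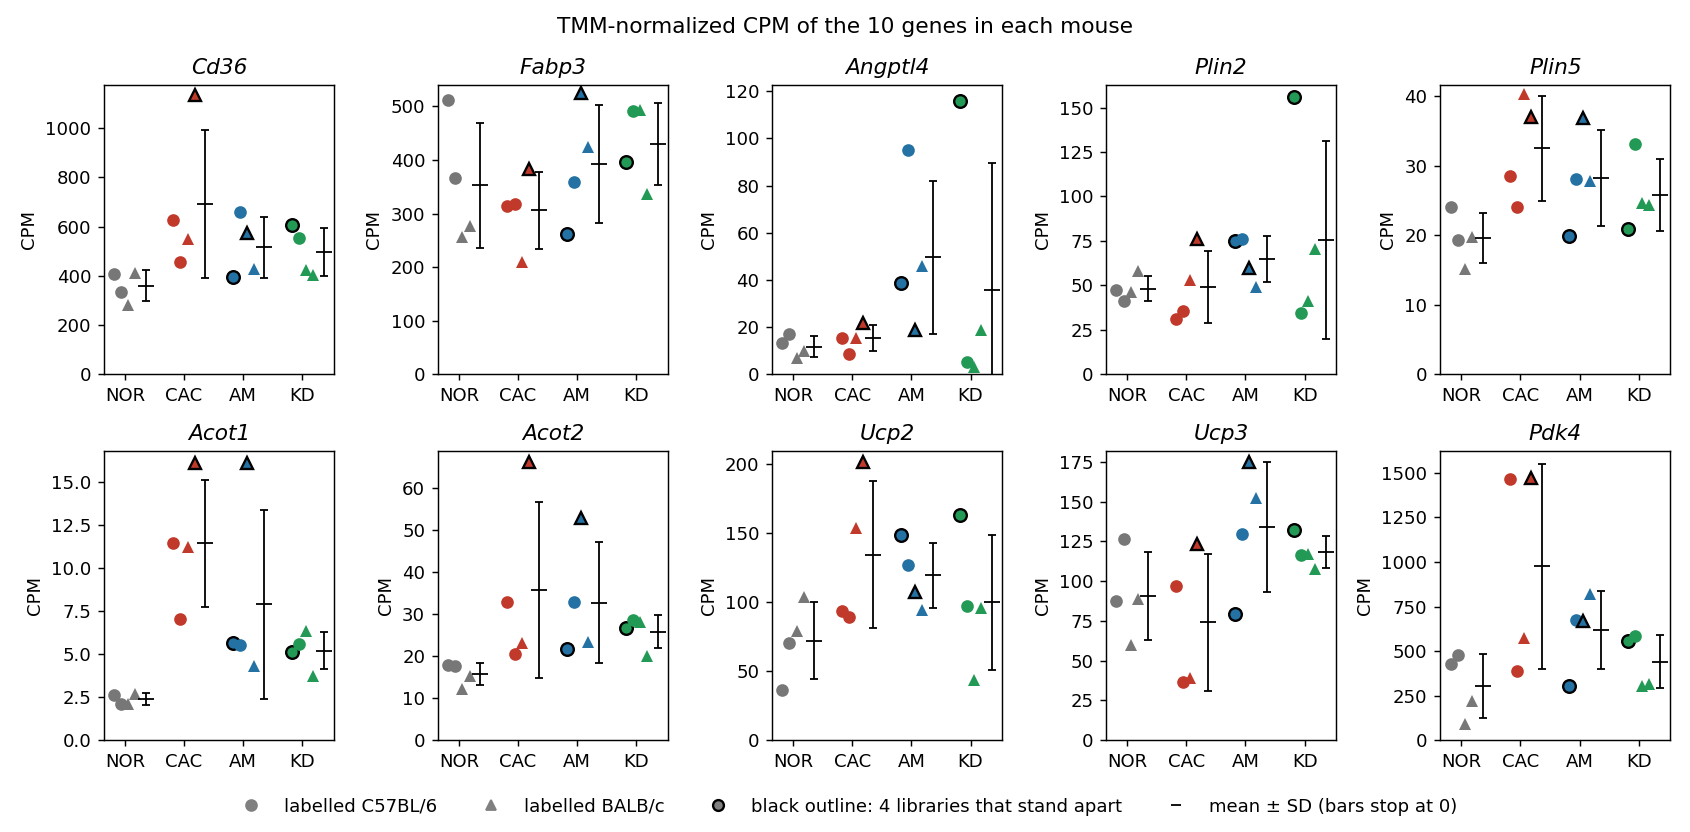
TMM-normalized CPM (y axis, from 0) of each of the 10 genes in every mouse, by group (x axis, 4 mice each). Circles are mice labelled C57BL/6, triangles mice labelled BALB/c, black outlines mark the 4 libraries that stood apart, and dashes with bars give mean ± SD. For Acot1 the NOR mice sit between 2.08 and 2.70 CPM, below all mice of the other groups, and for Angptl4 and Plin2 the KD group has 1 mouse far above the rest (116 and 156 CPM).

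Of the uptake genes, Cd36, the membrane protein through which muscle takes up much of its long-chain fatty acid, stood at 407, 336, 280 and 412 CPM in the NOR mice and 628, 458, 549 and 1133 CPM in the CAC mice. The groups did not overlap, with CAC replicate 4 far above the others, and the log2 fold change of 0.95 ± 0.29 (SE) missed the threshold (FDR 0.0617). It passed in 5 of 21 alternatives, among them DESeq2 (adjusted p = 0.00777), total-count scaling (FDR 0.0389), all libraries in one fit (0.0356) and the fit without CAC replicate 2 (0.0464). Without CAC replicate 4, which is one of the 4 libraries, the log2 fold change was 0.60. The AM mice had 396, 660, 575 and 429 CPM and the KD mice 608, 553, 425 and 403 CPM. Both of these groups overlapped CAC and NOR, and their log2 fold changes from CAC were -0.42 ± 0.29 (FDR 0.463) and -0.47 ± 0.31 (FDR 0.619). Without CAC replicate 4 these were -0.080 and -0.12.

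Fabp3, the carrier of fatty acids in the cytosol of muscle fibres, overlapped between all groups. It was at 512, 366, 256 and 277 CPM in NOR and at 315, 317, 209 and 384 CPM in CAC, a log2 difference of -0.20 ± 0.26 (FDR 0.664) that was -0.33 without CAC replicate 4. In AM (262, 359, 525 and 424 CPM) and KD (396, 491, 493 and 337 CPM) it overlapped both. None of its comparisons passed the threshold.

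Angptl4, which is secreted and blocks the lipase that releases fatty acids from lipoproteins, was at a low level in both NOR and CAC. NOR mice had 13.2, 17.0, 6.72 and 9.60 CPM and CAC mice 15.3, 8.33, 15.5 and 21.9 CPM, with overlap and a log2 fold change of 0.39 ± 0.35 (FDR 0.514), which was 0.16 without CAC replicate 4. AM mice reached 38.6, 95.0, 18.7 and 46.0 CPM, of which 3 lay above every CAC mouse. The log2 fold change of AM from CAC was 1.71 ± 0.48 with an FDR of 0.0824, and DESeq2 called it (adjusted p = 0.00266). KD mice were split, with 116 CPM in replicate 1 and 5.32, 3.04 and 18.6 CPM in the others. The fold change of KD from CAC was therefore set by that mouse, 1.26 with it and -0.76 without it on the log2 scale. In both conditions the mouse with most Angptl4 (AM replicate 2 and KD replicate 1) was also the one with the highest summed adipocyte markers of its group (4962 and 4269 CPM), whereas in NOR (replicate 4, 3911 CPM) and CAC (replicate 3, 5345 CPM) it was not. Over the 16 libraries Angptl4 had an r of 0.55 with adipocyte, 0.61 with brown adipocyte and 0.66 with macrophage markers (0.58, 0.68 and 0.72 within groups). With liver markers its r was 0.51 (0.32 within groups). AM replicate 1, with 38.6 CPM of Angptl4, carried liver transcripts, and their part in this level was not tested. With adipocyte sums as a covariate, added after seeing the data, the log2 fold changes from CAC were 1.58 (FDR 0.0828) for AM and 0.26 (FDR 0.927) for KD. Brown adipocyte, macrophage and liver sums were not used as covariates.

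Plin2, the coat protein of lipid droplets in most cell types, overlapped between CAC and NOR. It was at 47.1, 41.3, 46.1 and 57.8 CPM in NOR and at 31.3, 35.7, 53.1 and 75.8 CPM in CAC, a log2 difference of 0.03 ± 0.27 (FDR 0.965), and its sign turned when single mice were left out (-0.26 without CAC replicate 4). AM mice had 75.1, 76.0, 59.4 and 49.0 CPM, of which replicate 1 (75.1 CPM) carried liver transcripts. KD mice had 156, 34.2, 41.2 and 70.7 CPM, of which replicate 1 was the highest of all 16 mice. That same mouse was the highest for Angptl4.

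Plin5, the droplet coat found in oxidative tissues, stood at 24.0, 19.3, 15.2 and 19.8 CPM in NOR and at 28.5, 24.1, 40.4 and 37.0 CPM in CAC. The lowest CAC mouse (24.07 CPM) was only just above the highest NOR mouse (24.00 CPM). The log2 fold change of 0.73 ± 0.20 passed at an FDR of 0.0422, and it passed in 8 of 21 alternatives. The call was lost on leaving out CAC replicate 1 (FDR 0.0665), 3 (0.0643) or 4 (0.0877) or NOR replicate 2 (0.105), 3 (0.107) or 4 (0.0838), with log2 fold changes of 0.63 to 0.79, and with the labelled strain as a term (0.71, FDR 0.0561). AM (19.9, 28.1, 36.8 and 27.9 CPM) and KD (20.8, 33.1, 24.6 and 24.4 CPM) lay between CAC and NOR on average and overlapped both.

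The thioesterases held the clearest difference. Acot1 was at 2.63, 2.10, 2.08 and 2.70 CPM in NOR and at 11.4, 7.04, 11.2 and 16.1 CPM in CAC, so that the lowest CAC mouse was above the highest NOR mouse. The log2 fold change was 2.27 ± 0.26 (FDR 0.00272), and the gene ranked 76 of 14666 by p. Over 21 alternatives the log2 fold change was 2.01 to 2.504. The gene was called in 19 of them and missed the threshold only in the comparisons of 2 against 2 mice of 1 labelled strain (FDR 0.0703 and 0.0976). KD mice had 5.13, 5.60, 6.32 and 3.75 CPM, all below every CAC mouse and all above every NOR mouse. The log2 fold change of KD from CAC was -1.14 ± 0.27 (FDR 0.265 with edgeR, adjusted p = 0.0145 with DESeq2). AM mice had 5.64, 5.51, 16.1 and 4.30 CPM, of which replicate 3 matched the highest CAC mouse and the other 3 lay below all CAC mice. The log2 fold change of AM from CAC was -0.54 ± 0.43 (FDR 0.523) with this mouse and -1.13 (FDR 0.0907) without it.

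Acot2, the mitochondrial thioesterase next to Acot1, followed the same order at a higher count. NOR mice had 17.9, 17.6, 12.1 and 15.3 CPM, and CAC mice had 32.8, 20.6, 23.2 and 66.1 CPM. The groups were apart, and the log2 fold change of 1.18 ± 0.36 missed the threshold (FDR 0.0629) and was 0.70 without CAC replicate 4. It passed in 5 of 21 alternatives, namely DESeq2 (adjusted p = 0.00791), total-count scaling (FDR 0.0431), all libraries in one fit (0.0424) and the fits without CAC replicate 2 (0.0453) or 3 (0.050). AM mice (21.8, 32.7, 52.9 and 23.4 CPM) and KD mice (26.6, 28.5, 27.98 and 19.96 CPM) overlapped CAC, and both lay wholly above NOR. In the comparisons of AM and KD with CAC, Acot2 passed in 0 of the alternatives.

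Of the uncoupling proteins, Ucp2, an inner mitochondrial membrane carrier that is abundant in immune and fat cells, was at 36.1, 70.0, 79.2 and 103 CPM in NOR and at 93.6, 89.3, 153 and 201 CPM in CAC. Only NOR replicate 4 reached into the CAC range, and the log2 fold change was 0.90 ± 0.36 (FDR 0.14). With the labelled strain as a term the same comparison passed (FDR 0.0346). AM mice had 149, 127, 108 and 94.6 CPM and KD mice 163, 97.2, 43.7 and 95.9 CPM, overlapping both.

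Ucp3, the form made mostly in skeletal muscle, had 87.3, 127, 59.7 and 88.5 CPM in NOR and 97.1, 36.6, 39.1 and 124 CPM in CAC, where 2 mice were lower than any NOR mouse and the others within the range of NOR. The log2 difference was -0.29 ± 0.42 (FDR 0.714), and -0.65 (FDR 0.337) without CAC replicate 4. AM mice had 79.5, 130, 175 and 152 CPM, of which 3 were above all CAC mice, and the log2 fold change from CAC was 0.86 ± 0.42 (FDR 0.284), or 1.29 (FDR 0.267) without the 4 libraries. KD mice lay close together at 132, 117, 117 and 108 CPM. With summed B cell markers as a covariate, added after seeing the data, the AM difference from CAC was called (log2 fold change 1.64, FDR 0.018), and that of CAC from NOR was -0.82 (FDR 0.17).

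Pdk4, the kinase that switches off pyruvate dehydrogenase and so spares glucose while fat is burned, varied widely within NOR and CAC. NOR mice had 427, 477, 89.3 and 218 CPM, and CAC mice had 1465, 388, 575 and 1474 CPM. CAC replicate 2 fell within the NOR range, and the log2 fold change of 1.69 ± 0.60 missed the threshold with edgeR (FDR 0.102) and passed with DESeq2 (adjusted p = 0.0102), the one of 21 alternatives in which it did. AM mice (306, 674, 669 and 822 CPM) and KD mice (555, 583, 305 and 316 CPM) were between these on average, with log2 fold changes from CAC of -0.65 ± 0.47 (FDR 0.478) and -1.15 ± 0.48 (FDR 0.424).

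**Figure D2:**
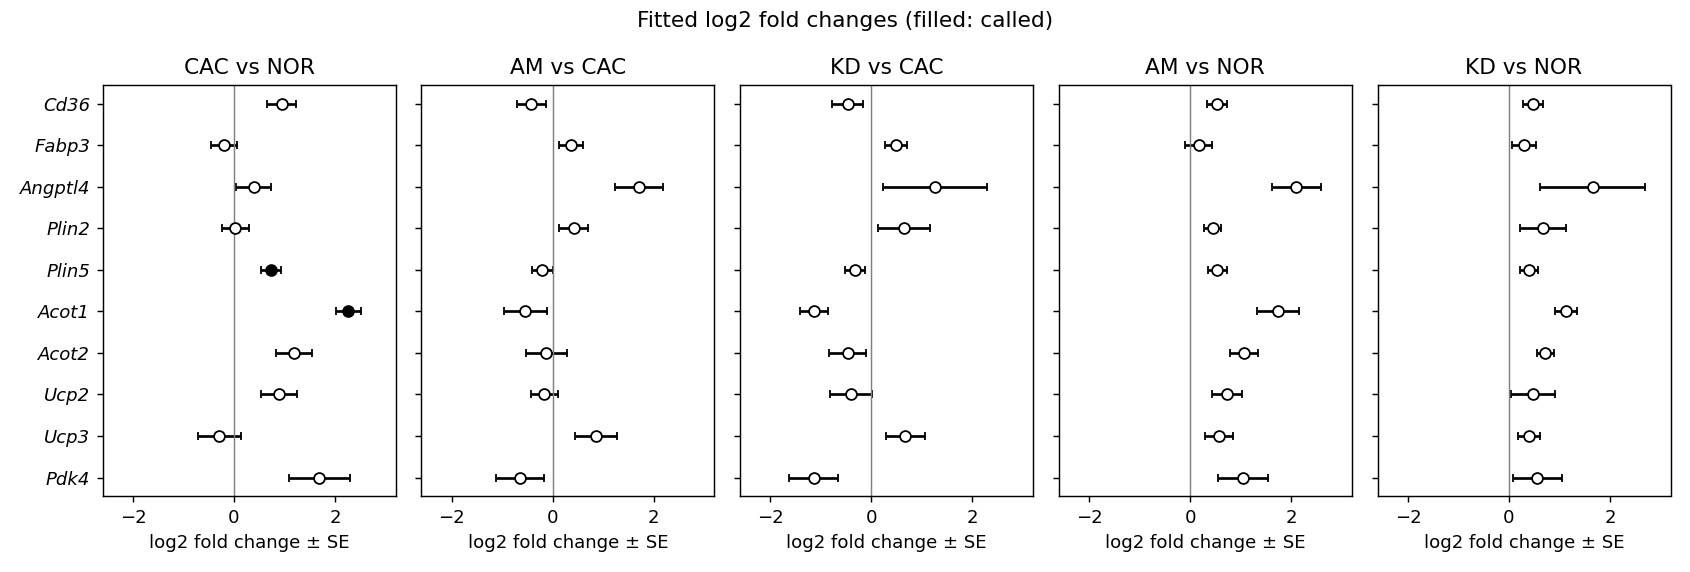
Fitted log2 fold changes with SE (x axis) of the 10 genes (y axis) in 5 comparisons of 4 against 4 mice. Filled points passed the threshold, which holds for Plin5 (0.73) and Acot1 (2.27) in CAC vs NOR and for no gene in the other comparisons.

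The AM gastrocnemius differed from CAC in 0 of the 10 genes by edgeR, where 1.63% of 14674 genes were called higher and 2.03% lower (3.66% in all). For 0 of the 10 did all AM mice lie above (6.08% of all genes) or below (9.61%) the CAC mice, and 4 of the 10 were above 0 (50.9% of all genes). At an unadjusted p under 0.05, edgeR marked 1 of the 10 (21.7% of all genes), and DESeq2 called 1, Angptl4 (7.49% of all genes). The KD gastrocnemius differed from CAC in 0 of the 10, where edgeR called 0.00685% of 14593 genes (1 gene). At an unadjusted p under 0.05 there were 2 of the 10 (11.1% of all genes), and DESeq2 called 1, Acot1 (2.15% of all genes). Acot1 was the one gene of the 10 with every KD mouse below every CAC mouse, as were 3.37% of all genes, and for 0 of the 10 did every KD mouse lie above (3.63%). Both comparisons use the same CAC mice, so their fold changes are not independent. Without the 4 libraries the log2 fold changes of AM from CAC were 2.44 for Angptl4, -1.01 for Acot1 and -0.11 for Pdk4, and those of KD were -0.92 for Acot1 and -0.53 for Angptl4, with 0 calls in either.

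Relative to NOR, the fitted fold changes of all 10 genes were above 0 in AM and in KD, as were 53.7% of all genes in each. edgeR called 0 of the 10 and 0% of all genes in both comparisons (14738 and 14748 genes). At an unadjusted p under 0.05 it marked 7 of the 10 in AM vs NOR (9.19% of all genes) and 4 of the 10 in KD vs NOR (3.54% of all genes). DESeq2 called 3 of the 10 in AM vs NOR (Angptl4, Acot1 and Acot2, with 0.504% of all genes called) and 1 in KD vs NOR (Acot1, with 0.216%). Every AM mouse lay above every NOR mouse for Angptl4 (log2 fold change 2.11 ± 0.49), Acot1 (1.74 ± 0.41) and Acot2 (1.07 ± 0.28), a pattern that 2.13% of all genes had. Every KD mouse lay above every NOR mouse for Acot1 (1.13 ± 0.21) and Acot2 (0.72 ± 0.16), against 1.23% of all genes. By p they ranked 5 and 16 of 14748 genes. The AM and KD comparisons share the NOR mice. Without KD replicate 1 the log2 fold change of Angptl4 in KD went from 1.66 to -0.36, and without the 4 libraries Acot1 had 1.07 in AM and 1.13 in KD.

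Effects were also compared between the mice labelled C57BL/6 with LLC tumors and those labelled BALB/c with CT26 tumors. The interaction passed for 0 of the 10 genes and 0% of all genes by edgeR, whether for CAC against NOR, for AM against CAC or for KD against CAC. At an unadjusted p under 0.05 it marked, in that order, 3, 2 and 1 of the 10, where 4.89%, 12.4% and 5.65% of all genes were marked. The 3 in CAC vs NOR were Angptl4, Plin2 and Plin5, and the 1 in KD vs CAC was Ucp2. In CAC vs NOR the log2 effects of these 3 were -0.36, -0.40 and 0.28 in mice labelled C57BL/6. In those labelled BALB/c they were 1.19, 0.31 and 1.15. The 2 in AM vs CAC were Ucp2 and Plin2, which DESeq2 called along with 2.88% of all genes. For the other two interactions DESeq2 called 0 of the 10, with 0.745% of all genes in CAC vs NOR and 0.657% in KD vs CAC. For Ucp2 the AM mice labelled C57BL/6 (149 and 127 CPM) were above their CAC counterparts (93.6 and 89.3 CPM), while those labelled BALB/c (108 and 94.6 CPM) were below theirs (153 and 201 CPM). The log2 effects were 0.59 and -0.81, and their difference was -1.42 ± 0.23 (FDR 0.239). For Plin2 the effects were 1.18 and -0.25, with a difference of -1.44 ± 0.27 (FDR 0.269). Of the 8 mice in this comparison, 3 are among the 4 libraries that stood apart, so the labelled strain is an uncertain divider here.

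Across the 16 libraries the 10 genes fell into loose sets. Cd36, Acot2, Acot1, Plin5 and Pdk4 went together, with Pearson's r of log2 CPM of 0.88 for Cd36 and Acot2, 0.86 for Acot1 and Acot2, 0.81 for Plin5 and Acot1 and 0.81 for Cd36 and Pdk4. Angptl4 and Plin2 formed another pair (0.74), and so did Fabp3 and Ucp3 (0.70). Ucp2 and Ucp3 had an r of 0.00273. After the group means were subtracted, Ucp3 and Pdk4 reached 0.85 and Angptl4 and Plin2 0.79, while Acot1 and Pdk4 fell from 0.68 to 0.30. These are descriptions over 16 libraries that share depth scaling and, within a group, treatment. For Acot1 and Acot2, 29.9% of the Acot2 words were also found in Acot1, so reads assigned to either gene could add to their r.

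**Figure D3:**
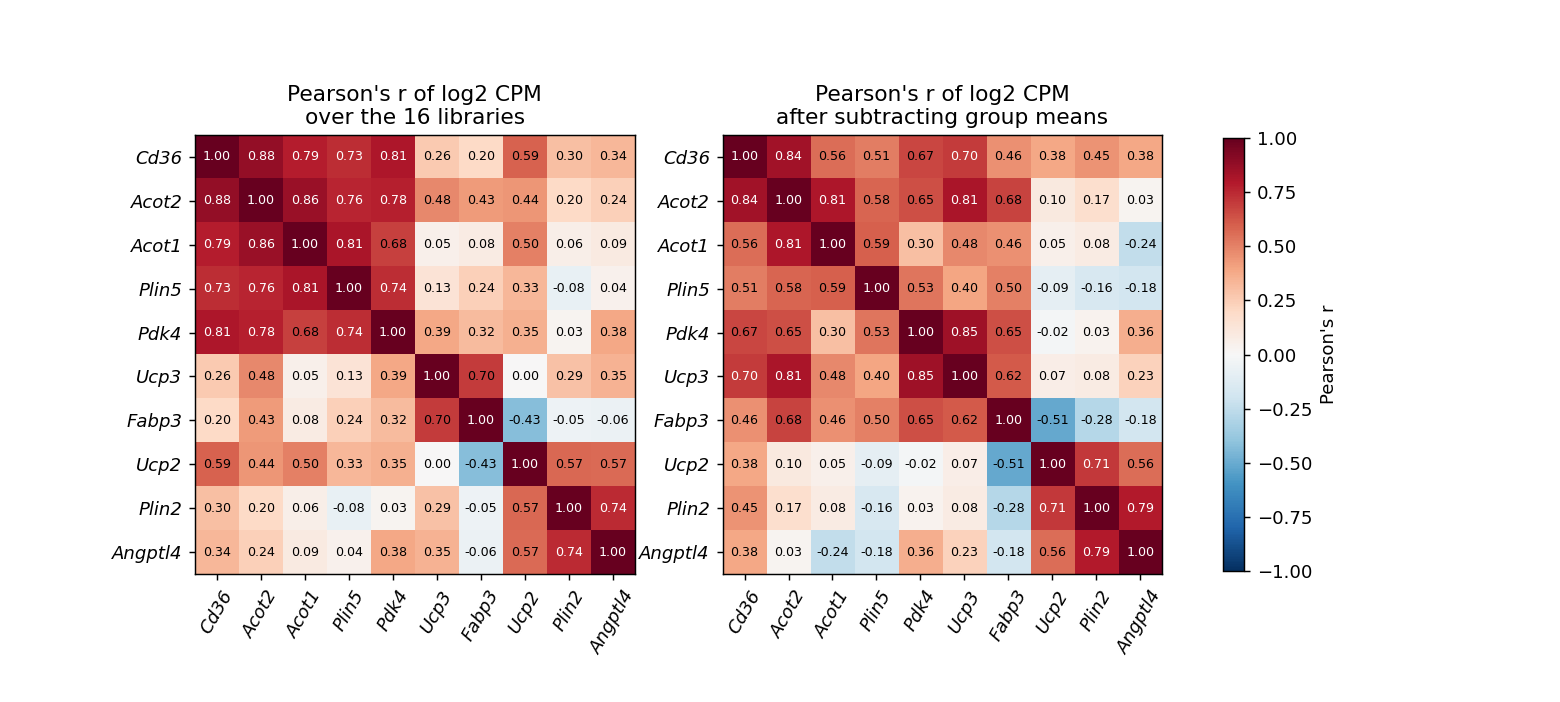
Pearson's r of log2 CPM between the 10 genes over the 16 libraries (left) and after subtraction of the group means (right), from -1 (blue) to 1 (red). Cd36 and Acot2 stay at 0.88 and 0.84, and Ucp2 and Fabp3 are below 0 in both (-0.43 and -0.51).

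The genes most like each member over the 16 libraries, by r among 15219 other genes, differed as well. Ucp2 was followed by Pira2 (0.975), Skap2 (0.945) and Pglyrp1 (0.938), genes known from myeloid cells. Fabp3 was followed by Acadm (0.940), the medium-chain acyl-CoA dehydrogenase, Sim1 (0.929) and Tmem246 (0.920). Acot2 was followed by Fosl2 (0.889), Cd36 (0.882) and Slc25a34 (0.873), and Pdk4 by Tbc1d12 (0.839), E2f7 (0.834) and Cd36 (0.806). The nearest gene was Capn2 for Cd36 (0.907), Srrm1 for Acot1 (0.911), Gabre for Plin5 (0.873), Rmdn3 for Plin2 (0.934), Srgap1 for Angptl4 (0.868) and Nynrin for Ucp3 (0.813).

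Markers of other cell types moved with some of the 10 genes. Summed neutrophil markers (7 genes) were 7.56 to 24.0 CPM in NOR, 90.0 to 199 CPM in CAC, 13.96 to 172 CPM in AM and 13.7 to 248 CPM in KD. Summed erythrocyte markers (7 genes) were 1050 to 1360 CPM in NOR, 3629 to 8620 CPM in CAC, 961 to 15890 CPM in AM and 2199 to 21360 CPM in KD. Neutrophil sums had an r of 0.76 with Ucp2 over the 16 libraries and 0.72 within groups, and of 0.71 with Acot1, which was 0.31 within groups. For Cd36, Acot2 and Plin5 the neutrophil r was 0.70, 0.60 and 0.54 (0.44, 0.25 and 0.10 within groups). Erythrocyte sums had an r of 0.59 with Cd36, 0.59 with Acot1, 0.57 with Acot2 and 0.55 with Plin5 (0.36, 0.25, 0.29 and 0.27 within groups). Capillary endothelium sums (8 genes) were 1008 to 1597 CPM in NOR and 1265 to 1789 CPM in CAC. Their r was 0.62 with Pdk4, 0.53 with Acot2, 0.51 with Cd36 and 0.46 with Plin5 (0.53, 0.435, 0.39 and 0.31 within groups). With Plin2 it was -0.28. Of the 8 genes edgeR called 2 higher (4.32% of all genes) and 0 lower (5.13%), and DESeq2 called 3 (12.8%), of which 2 were higher. Pecam1 stood at 247.5 to 314.5 CPM in NOR and 415.4 to 571.8 CPM in CAC. Ucp2 also had an r of 0.71 with macrophage and 0.70 with adipocyte markers and of -0.80 with fast fibre markers. Plin2 had an r of 0.68 with adipocyte, 0.78 with brown adipocyte and 0.56 with both macrophage and liver markers. The 4 brown adipocyte markers did not move as one. Ucp1 was 16.8 CPM in AM replicate 1 and 40.2 CPM in KD replicate 1 and at most 0.68 CPM in the other mice, and Cidea was also highest in KD replicate 1 (39.4 CPM). Zic1 was lowest of the 16 in these same mice (0.224 and 0.381 CPM), and Elovl3 was higher in CAC replicates 3 and 4 (2.28 and 3.15 CPM) than in them (1.77 and 1.45 CPM). Fabp3 had an r of 0.74 with slow fibre and 0.71 with skeletal muscle markers. Adipocyte sums (8 genes, 0 at 0 in any library) were 804 to 3911 CPM in NOR, 876 to 5345 CPM in CAC, 1463 to 4962 CPM in AM and 984 to 4269 CPM in KD. With adipocyte sums as a covariate, added after seeing the data, Acot1 in CAC vs NOR kept a log2 fold change of 2.21 (FDR 0.00614), and Plin5 had 0.64 (FDR 0.0874). With B cell sums these were 2.11 (FDR 0.00278) and 0.70 (FDR 0.0525). Summed skeletal muscle markers (8 genes), most of the sum from Acta1 and Ckm, were 77110 to 119300 CPM in NOR, 37870 to 76920 CPM in CAC, 73230 to 92970 CPM in AM and 66990 to 106100 CPM in KD. The CAC sums lay below all NOR sums. Of the 8 genes edgeR called 1 lower, Casq1 (log2 fold change -2.27), against 5.13% of all genes, and 1 higher, Des (1.05), against 4.32%. An unadjusted p under 0.05 was found for 4 of the 8, of which 1 was higher (29.1% of all genes), and DESeq2 called 4, of which 1 was higher (12.8%). Des stood at 5341 to 7815 CPM in CAC and at 2776 to 3753 CPM in NOR. The part of muscle markers, neutrophils, erythrocytes, capillary endothelium and liver transcripts in these results was not tested.

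**Figure D4:**
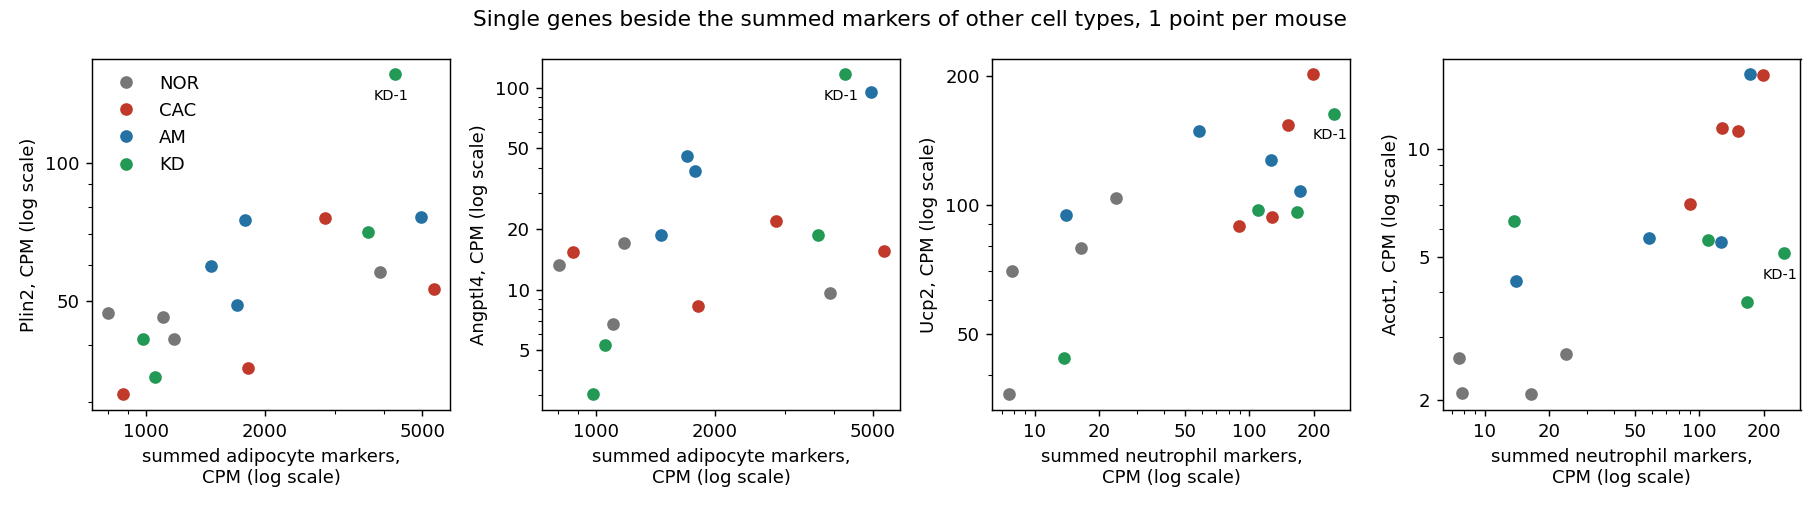
Level of Plin2 and Angptl4 against summed adipocyte markers, and of Ucp2 and Acot1 against summed neutrophil markers, all in CPM on log axes, 1 point per mouse, colored by group. KD replicate 1 (labelled KD-1) is the highest mouse for Plin2 and Angptl4, and for Acot1 the 4 NOR mice lie at the lower left, with neutrophil sums of at most 24.0 CPM.

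The other genes of the pathway were read from 6 lists, and their counts in CAC vs NOR stand against 4.32% of all genes called higher and 5.13% lower. Of 14 genes of fatty acid uptake, 2 rose in CAC vs NOR and 0 fell, namely Gpihbp1, which anchors lipoprotein lipase on capillaries (log2 fold change 1.02), and Acsl6, an acyl-CoA synthetase (0.91), and the median was 0.39. Gpihbp1 is also among the 8 capillary endothelium markers, of which 2 were called higher. Among 18 tested genes of lipid droplets and lipolysis, Plin4, another droplet coat, rose (1.06), 0 fell, and the median was 0.19. Of 17 tested relatives of the thioesterases, uncoupling proteins and Pdk4, 0 rose and 2 fell. They were Pdp1 (-1.83), the phosphatase that undoes what Pdk4 does, and Acot7 (-0.69). Their median was -0.14.

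Of 19 tested enzymes of fatty acid oxidation, classical PPAR targets, 0 were called by edgeR, 5 had an unadjusted p under 0.05 (29.1% of all genes), of which 2 were higher, and DESeq2 called 1 (12.8% of all genes). The smallest FDRs belonged to Hadh (log2 fold change -0.49, FDR 0.0344) and Decr1 (-0.41, FDR 0.047), both lower and under the fold limit, and the median was -0.10. Among 15 PPAR receptors and coregulators, Lpin1 rose (0.73) and Rxrg (-1.02) and Ppargc1b (-0.69) fell. Of 16 fasting and glucocorticoid response genes, 11 rose and 0 fell, with a median of 1.32, led by Cdkn1a (2.93), a cell cycle inhibitor, the transcription factor Cebpd (2.76) and the ubiquitin ligases Fbxo32 (2.58) and Trim63 (2.502). The paper had already listed these named genes as raised in CAC. The list was chosen with earlier results of these data known, so its share is not independent of them. Whether fasting or glucocorticoids acted here was not tested.

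In AM vs CAC, where 2.03% of all genes were called lower and 1.63% higher, 8 of 16 genes of the fasting list fell (0 rose, median -1.38), among them Trim63 (-2.42), Cebpd (-2.35) and Fbxo32 (-1.94). The median of the 10 lipid-supply genes was -0.14 and that of all genes 0.01. Both sets were chosen with earlier results known, and this comparison shares its CAC mice with CAC vs NOR. The medians are therefore not independent of that choice. Of the other lists, Acsl6 (-0.95), Vldlr (-0.70), Plin4 (-1.04) and Lpin1 (-0.67) fell, and Cpt1a (0.89), which takes fatty acids into mitochondria, and Ppargc1b (0.88) rose. In KD vs CAC edgeR called 0 of the 99 tested genes of the 6 lists (0.00685% of all genes). Of the 99, 26 had an unadjusted p under 0.05 (11.1% of all genes), DESeq2 called 10 (2.15% of all genes), and the medians were -0.99 for the fasting list and -0.37 for the 10 genes. In AM vs NOR and KD vs NOR edgeR called 0 of 99 as well (0% of all genes in each). An unadjusted p under 0.05 was found for 10 of 99 in AM vs NOR (9.19% of all genes) and 6 in KD vs NOR (3.54%), and DESeq2 called 2 (0.504%) and 0 (0.216%).

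**Figure D5:**
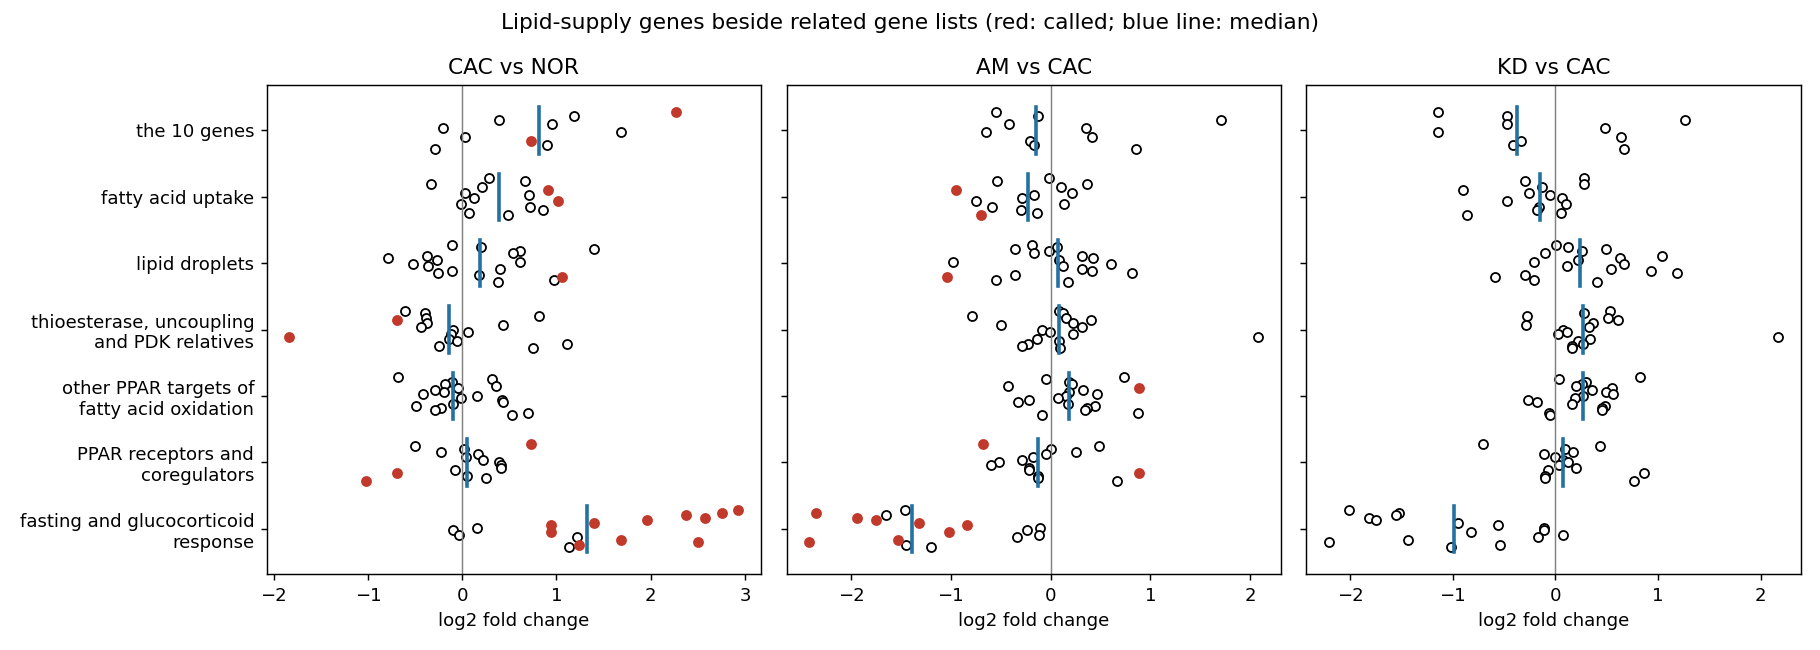
Log2 fold changes (x axis) of the 10 genes and of 6 related lists (rows), from left to right for CAC against NOR, AM against CAC and KD against CAC. Red points were called, open points were not, and blue lines are medians. In AM vs CAC the fasting and glucocorticoid list is centred at -1.38 and the 10 genes at -0.14.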

How the data were processed

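Poly(A) RNA of gastrocnemius was sequenced from 16 mice, 4 per group. Per the labels, the submitters' processing notes name fastp, Bowtie2, HISAT2, StringTie 1.3.1 and the builds mm9 and GRCm38, without their roles. The authors deposited raw whole-number counts for each gene, and FPKM computed from the counts. All columns were matched to a mouse, and 0 columns belonged to no sample. The 10 genes and the 6 pathway and 12 marker lists were chosen with earlier results of these data known.

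The counts of each pair of groups (8 libraries) were fitted in edgeR 4.0.16 under R 4.3.3. Genes passed filterByExpr at a minimum count of 10 with a total of at least 15, TMM scaling was applied, and glmQLFit was followed by the quasi-likelihood F test. The paper's methods name NOISeq, which was not run. For Acot1 and Pdk4 in CAC vs NOR its supplement prints the adjusted p-values that DESeq2 gave here (2.78e-14 and 0.0102). For Cd36 it prints another value than DESeq2 gave here (0.00777). A gene was called where its Benjamini-Hochberg FDR over all genes tested did not exceed 0.05 and its fold change was 1.5 or more, or 0.67 or less. The interaction with the labelled strain was called at the FDR alone. SEs are the log2 fold change divided by the square root of F. Log2 CPM used a prior count of 2. Likeness and marker values are Pearson's r of log2 CPM over the 16 libraries. Named were the 10 genes, of each list up to 4 called genes with the largest change in CAC vs NOR (where none was called, the 2 with the smallest FDR) and the 3 genes most like each of the 10. Genes of the lists called in AM vs CAC were named after their values were seen.

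In simulated data made from these libraries, 45.5% of 2-fold and 83% of 4-fold changes were found in CAC vs NOR, 35.1% and 77.9% for AM against CAC, 14.2% and 61.3% for KD against CAC, 43.3% and 86.1% in AM vs NOR, and 22.2% and 64.6% in KD vs NOR. Pairs of libraries of a group differed by a chi-square per degree of freedom of at least 69.3, so none was a repeat of another. Mice were housed singly, per the study's methods, with 1 library each, so p-values measure the spread between mice, and extraction and sequencing batches are not given in the sources used here. Alternatives were total-count and DESeq2-type scaling, DESeq2 1.42.0, other filters, the labelled strain as a term or alone, the replicate number as a block, all libraries in one fit, and each mouse left out. Fits without the 4 libraries that stood apart, or with B cell or adipocyte sums as a covariate, were chosen after seeing the data. Positions are from GENCODE M21, and start-site windows from RefSeq. Figures were drawn with Python 3.11.15 and matplotlib 3.10.9. Tables were read with pandas 2.3.3 and the R package data.table (version 1.17.8).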

Additional observations from a re-analysis of the deposited data

Results flagged for a closer look

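In 2 of the 40 sets of 4 mice (10 genes in 4 groups) the highest mouse stood further from the nearest other than Dixon's 95% limit allows, and chance gives this in about 1 of 20 sets. The first was Angptl4 in KD, with 116 CPM in replicate 1 against at most 18.6 CPM in the other KD mice, and this mouse also had the highest Plin2 (156 CPM) of the 16. The other was Acot1 in AM, with 16.1 CPM in replicate 3 against at most 5.64 CPM in the other AM mice. Both mice are among the 4 libraries that stood apart from the other 12, and the part of that in these values was not tested.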

How the results depend on the processing

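Of 10 genes in 5 comparisons, 975 of the refitted values had the direction and side of the threshold as reported, 40 changed sign, 20 gained and 15 lost a call. The cause of these changes was not tested. In CAC vs NOR 2 of the 10 genes were called, and the count was 4 with total counts only, 5 with DESeq2 (Cd36, Acot2 and Pdk4 added, with 12.8% of all genes called), 4 with all libraries in one fit, 0 in mice of either labelled strain alone, and 1 without the 4 libraries, with B cell or with adipocyte sums as a covariate. Leaving out each mouse gave 1 to 4. Apart from DESeq2, the share of all genes called was not taken in these refits, so their counts cannot be set beside such a share. In AM vs CAC 0 became 1 with DESeq2 (Angptl4) and 1 with B cell sums (Ucp3), in KD vs CAC 1 (Acot1), in AM vs NOR 3 and in KD vs NOR 1 with DESeq2, and the interaction with strain in AM vs CAC went from 0 to 2 with DESeq2.

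Replicate numbers did not pair the mice. Same-numbered mice deviated together with r of -0.19 to 0.60 in CAC vs NOR and of -0.64 to -0.25 in KD vs CAC, and at most 1 of 4 correlated best with its own number. With the replicate block 3 genes were called in CAC vs NOR (Cd36, Acot1 and Ucp2), and Plin5 was not (FDR 0.0978). The share of all genes called with this block was not taken. Plin2 had -0.050 with the block in CAC vs NOR and Angptl4 -0.19 in KD vs CAC.

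Log2 fold changes that changed sign were as follows. In CAC vs NOR, Plin2 had -0.045 with strain as a term, -0.012 with B cell and -0.19 with adipocyte sums, -0.26 without the 4 libraries and -0.36 in mice labelled C57BL/6, where Angptl4 had -0.32. Mice labelled BALB/c gave 0.12 for Ucp3 and 0.15 for Fabp3. In AM vs CAC, mice labelled C57BL/6 gave -0.022 for Fabp3, 0.032 for Acot2 and 0.60 for Ucp2, those labelled BALB/c -0.26 for Plin2, B cell sums 0.13 for Pdk4 and 0.45 for Acot2, and the fit without the 4 libraries 0.14 for Acot2. In KD vs CAC, mice labelled C57BL/6 gave 0.055 for Plin5, 0.065 for Acot2, 0.12 for Cd36 and 0.54 for Ucp2, those labelled BALB/c -0.21 for Plin2 and -0.78 for Angptl4, which had -0.53 without the 4 libraries. Against NOR, mice labelled C57BL/6 gave -0.0038 for Ucp3 and -0.46 for Fabp3 in AM, those labelled BALB/c -0.40 for Ucp2 in KD, and Angptl4 in KD had -0.43 with adipocyte sums and -0.36 without the 4 libraries. Leaving out each mouse gave -0.26 to 0.19 for Plin2 and -0.33 to 0.031 for Fabp3 in CAC vs NOR, -0.44 to 0.36 for Acot2 and -0.31 to 0.094 for Ucp2 in AM vs CAC, -0.66 to 0.014 for Acot2, -0.015 to 0.94 for Plin2 and -0.76 to 1.65 for Angptl4 in KD vs CAC, and -0.36 to 2.04 for Angptl4 in KD vs NOR.

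Scaling by total counts moved the median of all genes by 0.13 in CAC vs NOR and by -0.11 in KD vs CAC on the log2 scale, and that of the 10 genes from 0.81 to 0.95 and from -0.37 to -0.50. Depth left at least 97 counts for each of the 10 genes in every library (lowest for Acot1 in NOR replicate 1). Fits of 2 against 2 mice of 1 labelled strain test fewer mice.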
